A study of Homo sapiens with 8 samples.

Results

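The genes described here encode the proteins of the mitochondrial ribosome, and were taken as every gene whose symbol in the array's annotation begins with MRPL or MRPS followed by a number. Probe sets that name 1 gene alone gave 77 such genes, 50 MRPL and 27 MRPS, of 19775 genes named on the array. Where several probe sets named a gene, the one with the highest mean log2(signal + 10) over the 8 arrays stood for it. Of the 77, 76 passed the filter on low signals and were tested among 14162 genes. The remaining one, MRPL45P2, a pseudogene, read 0.838 to 22.1 on the 8 arrays, below the filter on each of them. MRPL20-AS1, which the symbol rule also caught, is an antisense RNA gene and makes no ribosomal protein.

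Gene expression was measured on 8 Affymetrix arrays, 2 in each of 4 groups, all from cells labelled HEL, a line grown from a human erythroleukaemia whose JAK2 carries an activating mutation. One treated group received CEP701 (lestaurtinib, a kinase inhibitor that acts on JAK2 and FLT3) at 0.5 µM for 16 h, and its control received the vehicle DMSO for 16 h. The other was a stable line carrying PRMT5 shRNA in a lentiviral pLKO vector, a knockdown made with 1 hairpin against the arginine methyltransferase PRMT5, and its control was a line with scramble shRNA. The labels do not say whether the stable lines were clones or pools, and do not give the origin of the replicates. The p-values therefore reflect how much these arrays vary, which may be technical variation alone, and 2 arrays a group limit the precision.

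Mitochondrial ribosomes translate the few proteins encoded by mitochondrial DNA, all of them subunits of the respiratory chain and ATP synthase. Their RNA comes from mitochondrial DNA, but every one of their proteins is encoded in the nucleus, made in the cytosol and imported. Some of these proteins descend from bacterial ribosomal proteins, and others have no bacterial counterpart and were gained in mitochondria. MRPL and MRPS stand for the large and the small subunit, although MRPS30 and MRPS18A were later placed in the large one.

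The arrays of the shRNA lines stood apart from those of the drug experiment. Pearson's r between arrays, across all genes tested, was 0.804 to 0.845 between the shRNA and drug arrays and 0.964 to 0.978 within groups. All 12 erythroid and megakaryocyte markers of HEL cells passed the filter on low signals, but their summed signal was 47225 to 77801 on the shRNA arrays, against 29847 to 31930 on the drug arrays. Among them PF4 read 21810 to 45436 on the shRNA arrays, against 1054 to 1980 on the drug arrays, and JAK2 read 424 to 561 against 1670 to 2681. The summed signal of 5 monocyte and granulocyte markers was 40578 to 68778 on the shRNA arrays, against 5384 to 9053 on the drug arrays, and MPO alone read 10913 to 20593 against 4.13 to 63.5. The sum of 7 epithelial and fibroblast markers was 3150 to 6421 on the shRNA arrays, against 1724 to 1974 on the drug arrays. Its members did not move together. EPCAM read 484 to 2753 against 23.3 to 49.8 and CDH1 485 to 2605 against 2.30 to 17.2. In contrast, KRT18 read 215 to 274 against 1259 to 1385 and COL1A1 199 to 261 against 338 to 476. The summed signal of 5 lymphocyte markers was 403 to 629 on the shRNA arrays, against 1264 to 1753 on the drug arrays. These markers did not move together either. CD2 read 98.3 to 168 on the shRNA arrays, against 854 to 1234 on the drug arrays, and CD3D 58.8 to 104 against 7.75 to 53.6. CD3E, CD79A and MS4A1 overlapped. The part of these differences in the results was not tested, and whether the cells of both experiments were the same is not settled by the labels. PRMT5, the targeted gene, had signals of 664 and 315 with PRMT5 shRNA, against 1794 and 984 with scramble shRNA. Its log2 difference of -1.52 ± 0.35 (SE) did not pass without a term for the shared title suffix of the shRNA arrays (limma adjusted p = 0.217) and passed with it (adjusted p = 8.91e-05, range over all alternatives 8.91e-05 to 0.91).

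Signals of the 76 genes spanned a wide range. MRPL57, MRPS15 and MRPL3 had the brightest probe sets, with mean log2(signal + 10) of 13.74, 13.54 and 13.48, and MRPL2, MRPL38 and MRPL20-AS1 the dimmest, with 9.10, 9.36 and 9.41. These are properties of the probe sets as well as of the transcripts, and do not rank the genes by abundance. The median over the 76 genes was 11.64 and 11.62 on the CEP701 arrays, against 11.90 and 11.90 on the DMSO arrays, so both drug-treated arrays lay below both controls. It was 11.48 and 11.01 on the PRMT5 shRNA arrays, against 11.29 and 11.10 on the scramble arrays, which overlapped. All 4 shRNA arrays lay below all 4 drug arrays. In bulk RNA, fewer cells that express a gene and less of its RNA per cell cannot be told apart.

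**Figure D1:**
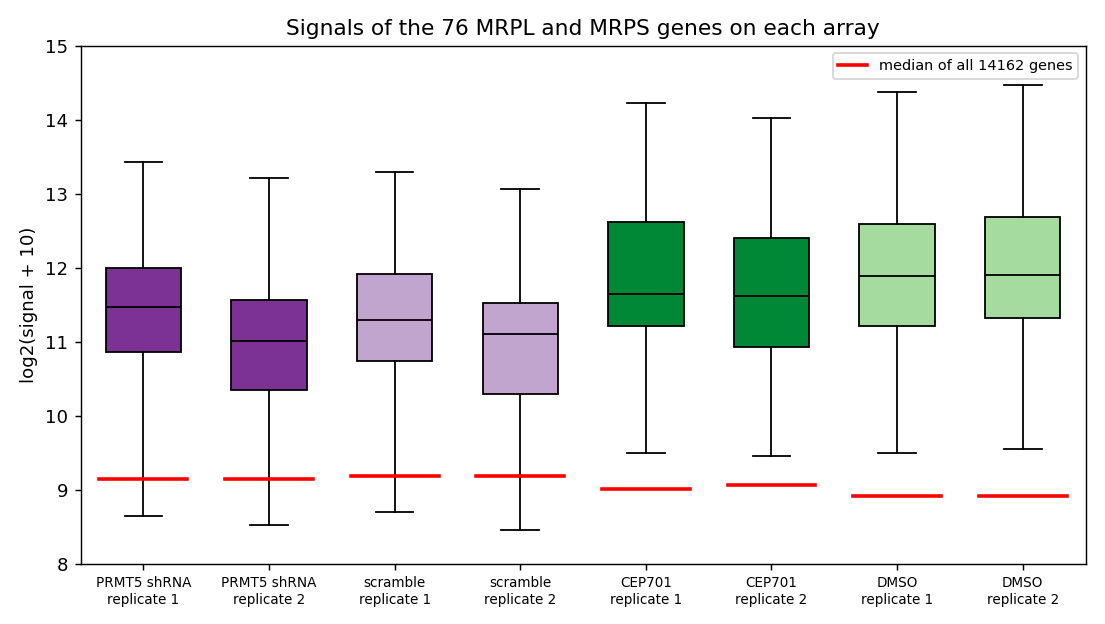
Signals of the 76 MRPL and MRPS genes on each of the 8 arrays, as log2(signal + 10); boxes span the quartiles with the median, whiskers reach the lowest and highest gene, and red lines mark the median of all 14162 genes tested. The members' median is 11.48 or lower on the shRNA arrays and 11.62 or higher on the drug arrays, while the median of all genes is between 8.92 and 9.19 on every array.

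Promoter sequences were available from RefSeq (GRCh38.p14) for 67 of the 76 genes, as windows of 250 bases before to 50 after the transcription start, the first listed window for each gene. They were searched on both strands for short motifs of regulators known for nuclear genes of mitochondria. The ETS motif, CCGGAAG, which GABPA and other ETS factors bind, was found in 28 of 67 windows (41.8%), against 14.2% of 15843 windows of protein-coding genes. The YY1 motif, AAGATGGC, was found in 19 windows (28.4%), against 3.9%, and 14 of its 20 matches began within the 50 bases after the start. The NRF1 motif, GCGCA and GCGC with any 1 base between them, was found in 8 windows (11.9%, against 8.6%), and the E-box CACGTG, which MYC and MAX bind, in 6 (9.0%, against 8.9%). At least one of the ETS, YY1 and NRF1 motifs was present in 43 windows (64.2%, against 23.6%), and no window held overlapping matches of different motifs. A match is a description of these letters and does not show that a factor binds there.

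**Figure D2:**
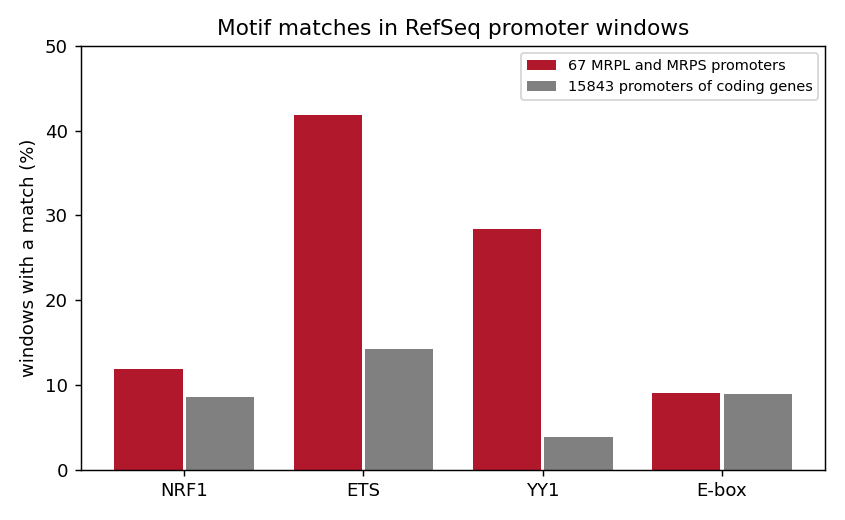
Share of promoter windows, in percent, with at least one match to each of 4 motifs, for 67 MRPL and MRPS genes (red) and 15843 protein-coding genes (grey). The ETS motif is present in 41.8% and 14.2% and the YY1 motif in 28.4% and 3.9%, while the E-box shares are 9.0% and 8.9%.

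The promoters of 5 genes on which the comparisons below turn are shown from 120 bases before to 30 bases after the start, 5′ to 3′ along the gene's strand, with motif matches in capitals. MRPL42, MRPS6 and MRPS5 are the genes that passed the test with CEP701, and MRPL20 and MRPS12 are examples from the comparison of the control groups. The windows are chr12:93467394-93467543 (plus strand) for MRPL42, chr21:34073458-34073607 (plus strand) for MRPS6, chr2:95121779-95121928 (minus strand) for MRPS5, chr1:1407264-1407413 (minus strand) for MRPL20 and chr19:38930824-38930973 (plus strand) for MRPS12. MRPL42 has a YY1 match just after the start, and MRPL20 has a pair of ETS matches before it and a YY1 match after it. MRPS12 has an ETS match that runs across the start, and the MRPS6 and MRPS5 stretches hold no match.
MRPL42: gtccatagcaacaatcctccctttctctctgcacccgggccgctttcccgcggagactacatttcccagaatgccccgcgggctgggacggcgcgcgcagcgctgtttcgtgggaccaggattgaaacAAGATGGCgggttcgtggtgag
MRPS6: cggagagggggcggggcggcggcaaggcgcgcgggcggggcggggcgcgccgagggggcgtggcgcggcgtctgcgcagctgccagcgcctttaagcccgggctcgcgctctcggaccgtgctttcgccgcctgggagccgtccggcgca
MRPS5: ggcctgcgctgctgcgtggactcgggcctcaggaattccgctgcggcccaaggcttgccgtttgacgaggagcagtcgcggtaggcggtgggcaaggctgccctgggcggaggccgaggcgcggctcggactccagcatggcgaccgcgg
MRPL20: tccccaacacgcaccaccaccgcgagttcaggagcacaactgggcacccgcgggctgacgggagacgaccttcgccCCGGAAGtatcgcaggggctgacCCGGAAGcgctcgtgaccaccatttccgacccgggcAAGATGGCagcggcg
MRPS12: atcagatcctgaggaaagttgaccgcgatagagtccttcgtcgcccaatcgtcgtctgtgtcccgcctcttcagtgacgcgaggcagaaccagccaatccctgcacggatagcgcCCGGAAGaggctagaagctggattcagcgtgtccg

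With CEP701, 3 of the 76 genes were lower than with DMSO and 0 were higher, by limma at an adjusted p under 0.05: MRPL42, MRPS6 and MRPS5. Of all genes tested, 2.04% were called lower and 3.74% higher, so the share called among the members was not far from the background. At an unadjusted p under 0.05 limma gave 19 lower and 1 higher, where 9.23% and 14.8% of all genes were. The median log2 difference over the members was -0.29, with 62 of 76 below 0, while it was 0.10 over all genes, of which 41.9% were below 0. Among 1979 genes whose mean signal lay between the quartiles of the members' own, the median was 0.00. In 53 members both CEP701 arrays read below both DMSO arrays and in 11 both read above, against 25.7% and 36.3% of all genes. Most members were thus slightly lower on the treated arrays, by amounts that for single genes rarely exceeded what the pooled spread of the 8 arrays allows to be called.

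MRPL42 is a large-subunit protein with no bacterial counterpart. MRPL42 had signals of 3078 and 2819 with CEP701, against 5330 and 5723 with DMSO, a log2 difference of -0.90 ± 0.20 (limma adjusted p = 0.036). The groups were far apart, and their means were 2949 ± 183 and 5526 ± 278 (SD, n = 2 each, p from limma over all genes). MRPL42 has 2 more probe sets, which read 2191 and 1868 with CEP701 against 2351 and 2336 with DMSO, and 722 and 1235 against 1100 and 1054. Their log2 differences were -0.21 and -0.19, so the size of the MRPL42 difference rests on the brightest probe set, and the mean over its probe sets gave -0.43 (adjusted p = 0.181, range over all alternatives 0.000223 to 0.228).

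MRPS6, a small-subunit protein with a bacterial counterpart, had signals of 3085 and 3122 with CEP701, against 5438 and 5464 with DMSO. Its arrays agreed closely within each group, and it fell by 0.81 on the log2 scale (SE 0.13, limma adjusted p = 0.0135, range over all alternatives 0.000323 to 0.137). Only 1 probe set names it. MRPS5, whose bacterial counterpart lies near the path of the incoming messenger RNA, had signals of 1492 and 1385 with CEP701, against 2050 and 2577 with DMSO. The log2 difference was -0.67 ± 0.16 (limma adjusted p = 0.0434, range over all alternatives 0.00449 to 0.302), and its next brightest probe set gave -0.56.

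The next members by p, MRPL32 and MRPS34, did not pass. MRPL32, a large-subunit protein that in yeast is cleaved after import before it joins the ribosome, had signals of 3440 and 3173 with CEP701, against 4561 and 5006 with DMSO (log2 difference -0.53, adjusted p = 0.0785). MRPS34, a small-subunit protein found only in mitochondria, read 1015 and 1137 against 1693 and 2029 (-0.78, adjusted p = 0.081). Neither pair of groups overlapped. MRPL12, named because its probe sets disagree in sign and not for its p, is the stalk protein that has also been reported to bind the mitochondrial RNA polymerase. It read 3171 and 3389 with CEP701, against 5011 and 5808 with DMSO (-0.72, adjusted p = 0.145).

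Not every member had a negative difference. MRPL10, which anchors the stalk to which MRPL12 belongs and was singled out after its values were seen, read 3910 and 3470 with CEP701, against 2566 and 2660 with DMSO. Its log2 difference of 0.49 ± 0.16 was the largest positive one and did not pass (limma adjusted p = 0.102). MRPL10 and MRPL12 therefore differed in sign, although their products sit side by side in the large subunit. MRPL52, MRPS33 and MRPS22, named for the same reason, followed with 0.36, 0.33 and 0.28 and did not pass.

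By role, the median log2 difference with CEP701 was -0.31 for 30 large-subunit proteins with a bacterial counterpart, -0.27 for 20 large-subunit proteins without one, -0.43 for 15 small-subunit proteins with a counterpart and -0.17 for 10 without. Of the 3 genes that passed, 2 were in the third of these classes and 1 in the second. The paralogues MRPS18A, MRPS18B and MRPS18C, descended from 1 bacterial protein and placed at different sites of the ribosome, gave -0.13, -0.09 and 0.06 and overlapped between groups. Despite this shared descent, the classes count only MRPS18C as having a counterpart, and MRPS18A and MRPS18B as having none. Members with an ETS match had a median of -0.15 and those without -0.43, and the 3 genes that passed were among those without. Members with a YY1 match had a median of -0.39 and those without -0.30. These splits are descriptions, and were not tested.

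**Figure D3:**
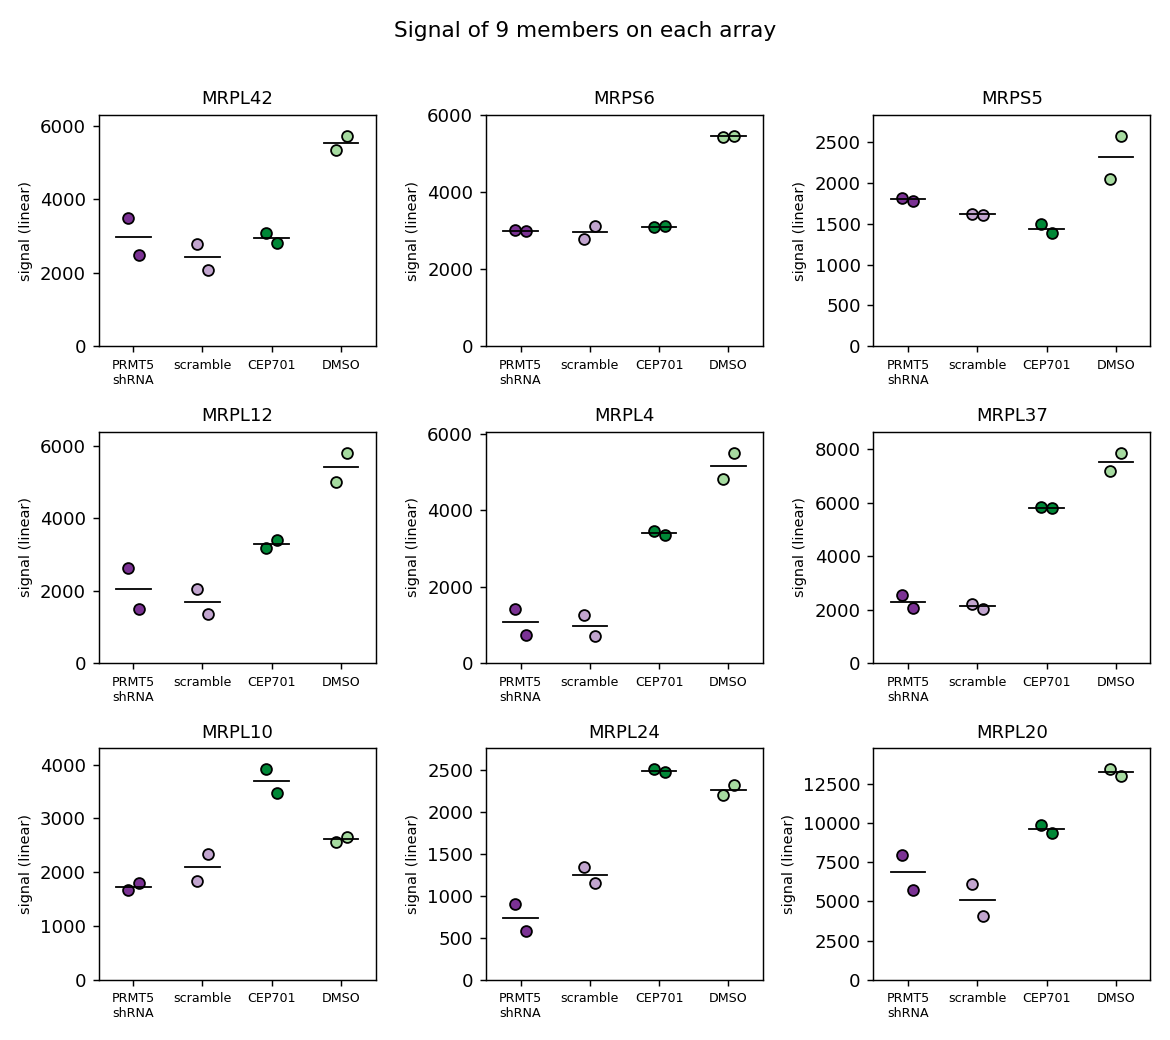
Deposited signal (linear scale, starting at 0) of 9 members on each array; points are arrays, lines are group means. MRPL42, MRPS6, MRPS5 and MRPL12 lie lower with CEP701 than with DMSO, MRPL10 lies higher, MRPL24 lies lower with PRMT5 shRNA than with scramble, and all 9 lie lower on both scramble arrays than on both DMSO arrays, although MRPL10 did not pass there.

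How many members were called with CEP701 depended on which arrays estimated the spread. With only the 4 drug arrays in the fit, 31 members were lower and 1 higher, where 10.1% and 12.6% of all genes were, and with a term for the shared suffix of the shRNA arrays the counts were again 31 and 1 (9.71% and 12.6% of all genes). The same 31 members were lower in both fits, and they included MRPL42, MRPS6 and MRPS5. Without any one of the 4 drug arrays 0 members passed, but then only 6 to 50 of all 14162 genes did. Without any one shRNA array 5 members were lower, and 1199 to 1233 of all genes were called. These counts of all genes take both directions together, unlike the count of members lower. Scaling moved the median of all genes, to -0.06 with scaling to the median and to -0.38 with scaling to the poly-A controls. The members' median minus that of all genes was -0.39 as deposited, -0.26 after quantile normalization, -0.39 with median scaling and -0.41 with poly-A scaling, with 1, 6 and 10 members lower under quantile, median and poly-A scaling, where 1.22%, 3.95% and 6.26% of all genes were. Of all genes called, 64.7% were higher as deposited, 36% with median scaling and 8.47% with poly-A scaling. The ratio of 5′ to 3′ actin signal, a measure of RNA quality, was 0.116 and 0.161 with CEP701, against 0.199 and 0.198 with DMSO. The same ratio for GAPDH was 0.787 and 0.856 with CEP701, against 0.882 and 0.809 with DMSO, which overlapped. The part of these ratios in the result was not tested.

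With PRMT5 shRNA, 0 of the 76 genes were higher and 0 lower than with scramble shRNA by limma, where 0.00706% and 0.141% of all genes were. At an unadjusted p under 0.05, 0 were higher and 1 lower, against 2.39% and 4.31% of all genes. The median log2 difference was 0.09, with 61 of 76 above 0, while 50.5% of all genes were above 0 and their median was 0.00. In 4 members both PRMT5 shRNA arrays read above both scramble arrays and in 4 both read below, against 14.1% and 16.1% of all genes. Between the arrays that share a title suffix, the members' median difference was 0.13 in one pair and 0.04 in the other. Over all genes, the medians in the same pairs were 0.003 and 0.004. In both pairs 38 members were higher and 8 lower. The share of all genes with the same sign in both pairs was not computed, so these counts have no background. The 5′ to 3′ actin ratio was 0.187 and 0.335 on the PRMT5 shRNA arrays, replicate 2 being the highest of all 8 arrays, against 0.141 and 0.179 on the scramble arrays. The GAPDH ratio went the other way, with 0.729 and 0.778 on the PRMT5 shRNA arrays, against 0.846 and 0.883 on the scramble arrays. The part of these ratios in these values was not tested. The sign of the median depended on single arrays. It was 0.31 without PRMT5 shRNA replicate 2 and 0.26 without scramble replicate 1, and -0.13 without PRMT5 shRNA replicate 1 and -0.08 without scramble replicate 2.

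MRPL24, a large-subunit protein whose counterpart in Escherichia coli starts the assembly of that subunit, had the lowest p. It had signals of 904 and 578 with PRMT5 shRNA, against 1345 and 1161 with scramble shRNA, and the groups did not overlap. The log2 difference of -0.78 ± 0.21 did not pass (limma adjusted p = 0.37). With the term for the shared suffix it did (adjusted p = 0.0146, range over all alternatives 0.0146 to 1), and it was then the 1 member lower, where 1.43% of all genes were lower. MRPL20, whose Escherichia coli counterpart is also an assembly protein of the large subunit, read 7970 and 5727 with PRMT5 shRNA, against 6078 and 4091 with scramble shRNA. Its groups overlapped, but it was higher in both pairs, and its log2 difference was 0.44 ± 0.21. The limma adjusted p was 0.039 with the same term, where it was the 1 member higher (0.318% of all genes were), and 0.775 without it (range over all alternatives 0.039 to 1).

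MRPL50 and MRPL44 followed in order of p without passing. MRPL50, which has no bacterial counterpart, read 2366 and 2028 with PRMT5 shRNA, against 1991 and 1369 with scramble shRNA (log2 difference 0.41, adjusted p = 0.775). MRPL44, a large-subunit protein of the RNase III family, read 1120 and 1199 against 842 and 1046 (0.30, adjusted p = 0.812). Both were higher without overlap. MRPL20-AS1 read 392 and 357 with PRMT5 shRNA, against 406 and 585 with scramble shRNA (-0.37, adjusted p = 0.816), so that it and MRPL20 had opposite signs.

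The design sets the drug beside the knockdown, and the difference of the effects (PRMT5 shRNA effect minus CEP701 effect) was tested directly. By limma 0 members were higher and 0 lower, where 0.325% and 1.11% of all genes were, and at an unadjusted p under 0.05, 17 were higher and 2 lower, against 7.75% and 12.1% of all genes. The median of this difference was 0.38 over the members and -0.11 over all genes. With the term for the shared suffix, 28 members were higher and 2 lower, where 7.94% and 9.4% of all genes were. The 5 members of lowest p were MRPS6, MRPL42, MRPL50, MRPS5 and MRPL44, with differences of 0.83, 1.19, 1.05, 0.83 and 0.80. Their adjusted p ran from 0.0644 for MRPS6 to 0.12 for MRPL44, and each had a negative difference with CEP701 and a positive one with PRMT5 shRNA. For MRPS6 the effects were -0.81 with CEP701 and 0.02 with PRMT5 shRNA, and for MRPL50 they were -0.64 and 0.41. Across the 76 genes the effects had Pearson's r of -0.39 and Spearman's rho of -0.39, given as a description since genes share arrays and are not independent.

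The largest contrast among the members lay between the control groups. In cells with scramble shRNA 55 of the 76 genes were lower than in DMSO-treated cells and 0 were higher, by limma at an adjusted p under 0.05, where 20.3% of all genes were lower and 25.5% higher. At an unadjusted p under 0.05, 57 were lower and 0 higher, against 23.5% and 29.3% of all genes. With the term for the shared suffix 61 were lower and 0 higher, where 25.2% and 29.9% of all genes were. The members' share called lower was 72.4%, against 33.6% among genes of like signal. The median log2 difference was -0.88, with 73 of 76 below 0, and 0.11 over all genes, of which 45.4% were below 0. In 66 members both scramble arrays read below both DMSO arrays and in 1 both read above, against 33.2% and 40.8% of all genes. The 5′ to 3′ actin ratio was 0.141 and 0.179 on the scramble arrays, against 0.199 and 0.198 on the DMSO arrays. The GAPDH ratio was 0.846 and 0.883 on the scramble arrays, against 0.882 and 0.809 on the DMSO arrays, which overlapped. The part of these ratios in the result was not tested. The control groups differ in vector and treatment with DMSO, and their arrays differ in the markers of several cell types given above, so that a difference in these genes cannot be told apart from a difference between the cell populations.

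MRPL37, a large-subunit protein with no bacterial counterpart, had the lowest p of all members. It read 2205 and 2030 with scramble shRNA, against 7179 and 7881 with DMSO, a log2 difference of -1.82 ± 0.15 (limma adjusted p = 1.56e-05). MRPL4, which lines the tunnel through which new proteins leave, had the largest difference. It read 1249 and 710 with scramble shRNA, against 4823 and 5504 with DMSO (-2.44 ± 0.31, adjusted p = 0.000233), and its 2 other probe sets gave -2.29 and -1.19. MRPS7, whose Escherichia coli counterpart starts the folding of the head of the small subunit, read 2002 and 1251 against 5251 and 5660 (-1.78, adjusted p = 0.000433). MRPS12, the counterpart of the bacterial protein at the decoding centre, read 3070 and 2474 against 8680 and 9836 (-1.74, adjusted p = 0.000169).

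MRPL15 read 4097 and 3148 with scramble shRNA, against 10281 and 10110 with DMSO. MRPL20 and MRPL38 fell by 1.40 and 1.34 on the log2 scale in scramble against DMSO cells. MRPL57, the member with the brightest probe set, read 10007 and 8567 with scramble shRNA, against 21210 and 22742 with DMSO, and fell by 1.25. MRPS15, MRPS30, MRPS18B and MRPS6 fell by 1.24, 1.18, 0.98 and 0.88. The adjusted p of these 8 genes was at most 0.000653, and in none of them did the groups overlap. MRPL38 has a dim second probe set that gave 0.72, and with the mean over its probe sets the difference was -0.31 (adjusted p = 0.544, range over all alternatives 3.15e-05 to 0.544). Other probe sets gave -1.48, -0.34 and -0.001 for MRPL57, -1.43, -0.81 and 0.05 for MRPS15, and -0.33 and -0.21 for MRPS30. For these genes the size of the fall thus depends on the probe set.

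The lower signals in scramble cells were spread over all roles. Of large-subunit proteins with a bacterial counterpart 21 of 30 were lower (median -0.88), of those without one 17 of 20 (-0.90), of small-subunit proteins with a counterpart 10 of 15 (-0.88) and of those without one 6 of 10 (-0.78). By their brightest probe sets the paralogues differed: MRPS18B, in the small subunit, read 3408 and 3009 with scramble shRNA, against 6164 and 6448 with DMSO, and passed. MRPS18A read 1645 and 1108 against 1350 and 1959, MRPS18C read 4224 and 3323 against 4278 and 3771, and neither passed (log2 differences -0.27 and -0.10). Another probe set of MRPS18A read 834 and 634 against 1080 and 1367 (-0.73), and another of MRPS18B gave -0.80. How far MRPS18A differs from MRPS18B thus depends on the probe set. Of the 3 members above 0, MRPL23 had the largest difference, 0.25 (adjusted p = 0.206), and was the 1 member higher without overlap. The members' median minus that of all genes was -0.99 as deposited and -0.75, -0.99 and -1.01 after quantile, median and poly-A scaling, with 52, 66 and 60 members lower, where 22%, 31.1% and 25.7% of all genes were. Of all genes called, 55.6% were higher as deposited and 49.3%, 35.8% and 35.8% under those scalings. CEP701 minus DMSO and scramble minus DMSO share the DMSO arrays, so likeness between them is not given as a result.

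**Figure D4:**
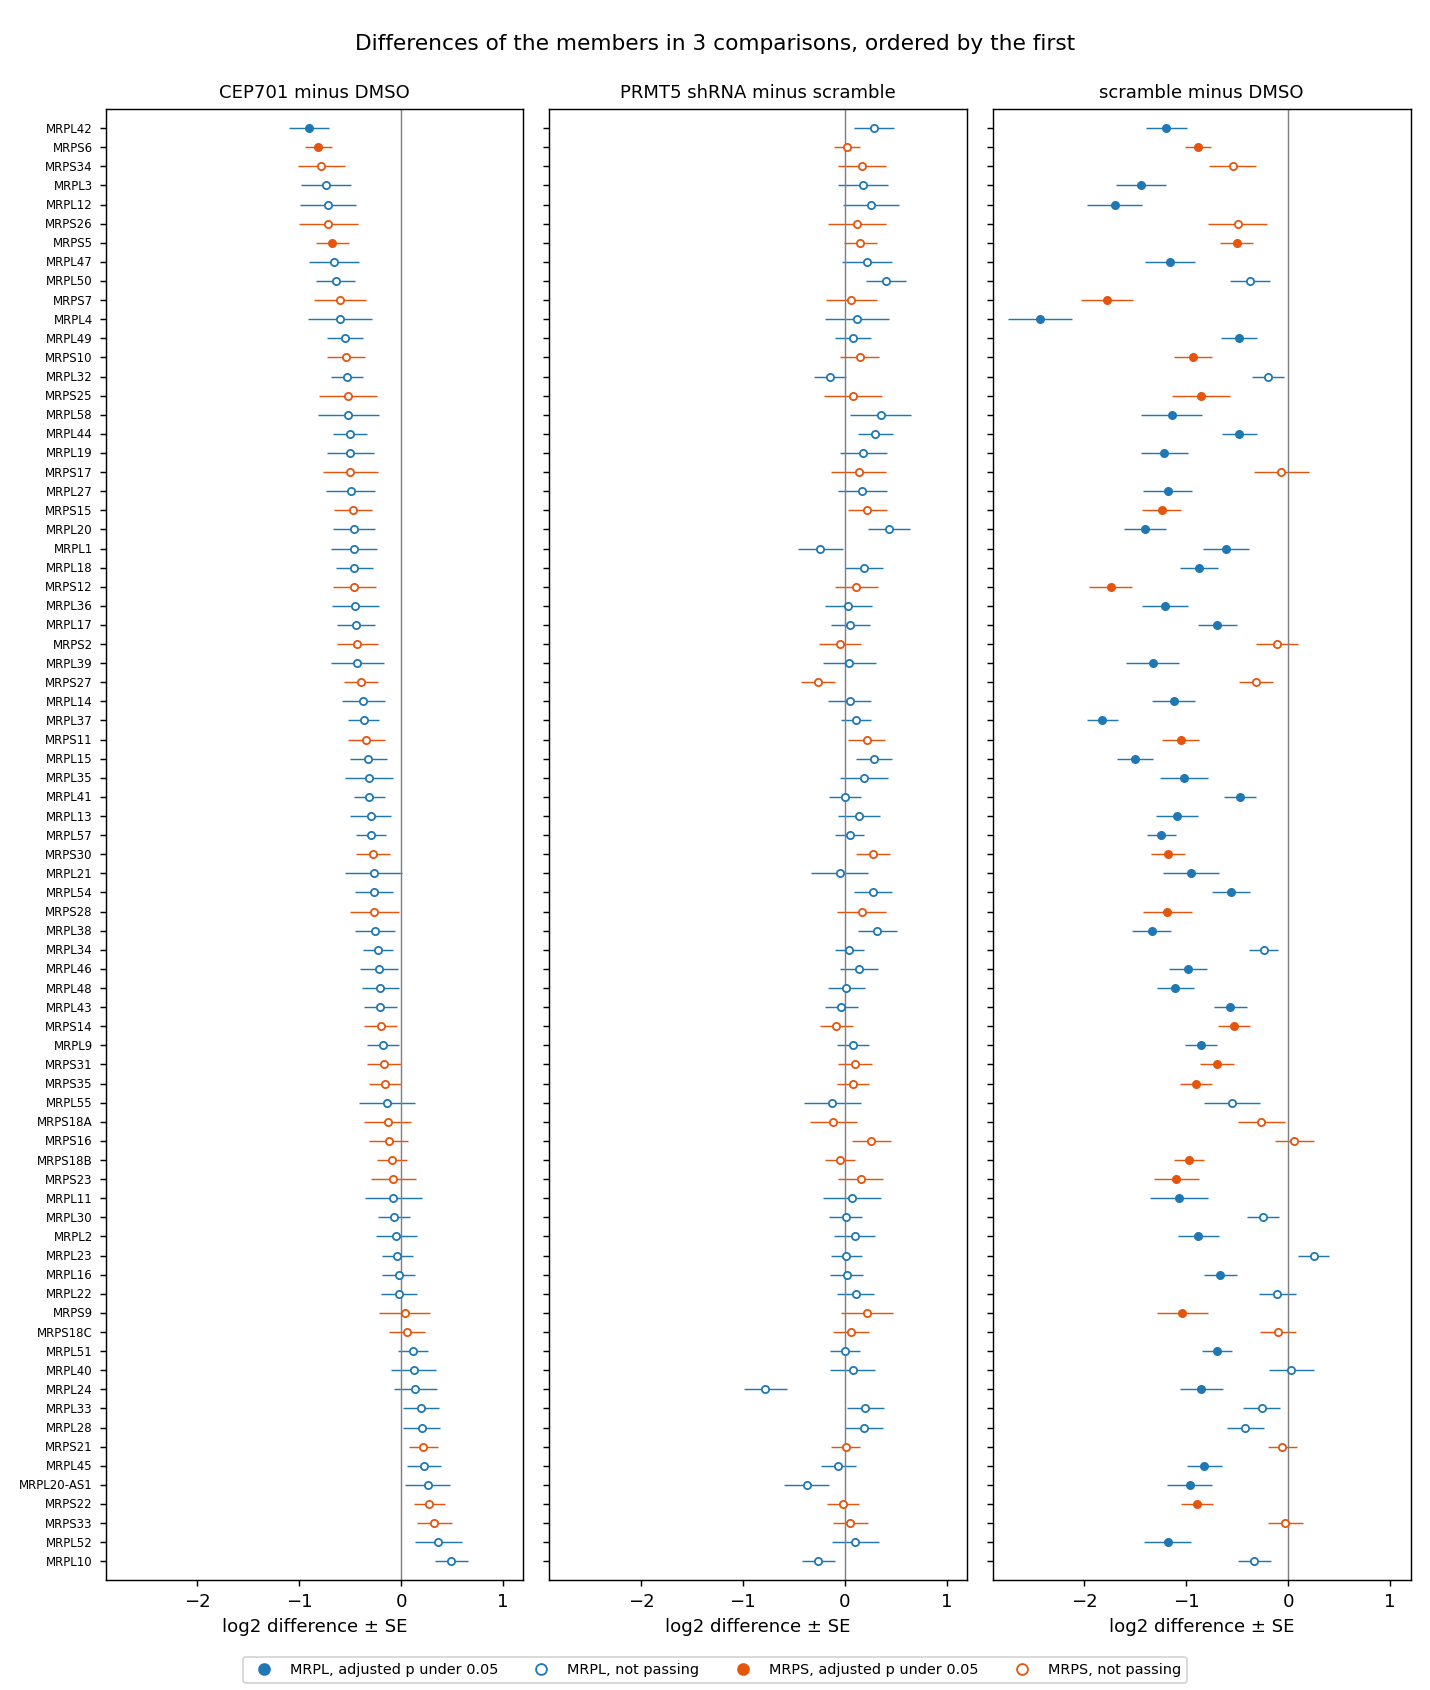
Log2 difference ± SE of each of the 76 members in 3 comparisons, from the fit of all 8 arrays, ordered by the CEP701 difference; filled points passed at an adjusted p under 0.05. With CEP701 62 points lie below 0 and 3 are filled, with PRMT5 shRNA 61 lie above 0 and none is filled, and between scramble and DMSO 73 lie below 0 and 55 are filled.

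Other genes of the same pathway were set beside the members. Of 17 genes that copy and transcribe mitochondrial DNA or process its RNA, 2 were lower and 0 higher with CEP701 (median -0.25), and at an unadjusted p under 0.05 5 were lower and 1 higher by limma. Of all genes tested, 2.04% were lower and 3.74% higher, and 9.23% and 14.8% at the unadjusted threshold, to be read beside every list count with CEP701. POLG, the polymerase that replicates mitochondrial DNA, read 445 and 524 with CEP701, against 800 and 827 with DMSO (log2 difference -0.74, limma adjusted p = 0.0477, range over all alternatives 0.00809 to 0.252). PNPT1, a nuclease of mitochondrial RNA, read 1430 and 1503 against 3233 and 3182 (-1.12, adjusted p = 0.0499, range 8.83e-05 to 0.244). Of 30 assembly factors of the mitochondrial ribosome, 2 were higher and 0 lower with CEP701, although 24 were below 0 and their median was -0.24. At an unadjusted p under 0.05, 2 were higher and 4 lower by limma. YBEY, an endoribonuclease, read 1055 and 1090 with CEP701, against 471 and 402 with DMSO (1.28, adjusted p = 0.00676, range 0.000205 to 0.102). NOA1, a mitochondrial GTPase, read 2776 and 2950 against 1510 and 1894 (0.76, adjusted p = 0.0411, range 0.00176 to 0.55).

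Translation factors of mitochondria (14 genes) had a median of -0.13 with CEP701, and none passed in either direction by limma, with 0 higher and 1 lower at an unadjusted p under 0.05. The 72 respiratory chain subunits had a median of 0.04 and the 50 proteins of the cytosolic ribosome a median of 0.02, and again 0 passed in either direction. At an unadjusted p under 0.05, 4 respiratory chain subunits were higher and 1 lower, and 2 cytosolic ribosomal proteins were higher and 0 lower. The median of the MRPL and MRPS genes, -0.29, thus lay below those of both of these groups in CEP701-treated cells, as a description of these arrays.

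In none of these lists did a gene pass with PRMT5 shRNA. The medians were 0.20 for translation factors, 0.13 for respiratory chain subunits, 0.10 for assembly factors, 0.08 for genes of mitochondrial DNA expression and -0.04 for cytosolic ribosomal proteins. At an unadjusted p under 0.05 limma gave 1 gene of mitochondrial DNA expression higher, 1 cytosolic ribosomal protein lower and none in the other 3 lists. In scramble against DMSO cells, 9 of 14 translation factors were lower and 1 higher (median -0.80), 12 of 30 assembly factors lower and 3 higher (-0.44), 8 of 17 genes of mitochondrial DNA expression lower and 1 higher (-0.54) and 35 of 72 respiratory chain subunits lower and 0 higher (-0.41; 44 and 1 at an unadjusted p under 0.05). Cytosolic ribosomal proteins had a median of -0.12, with 3 of 50 lower and 1 higher. Of all genes tested, 20.3% were lower and 25.5% higher in this comparison, and 23.5% and 29.3% at an unadjusted p under 0.05. RPUSD4, a pseudouridine synthase acting on mitochondrial ribosomal RNA, read 1367 and 1046 with scramble shRNA, against 4297 and 4787 with DMSO (-1.91, adjusted p = 2.92e-05).

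**Figure D5:**
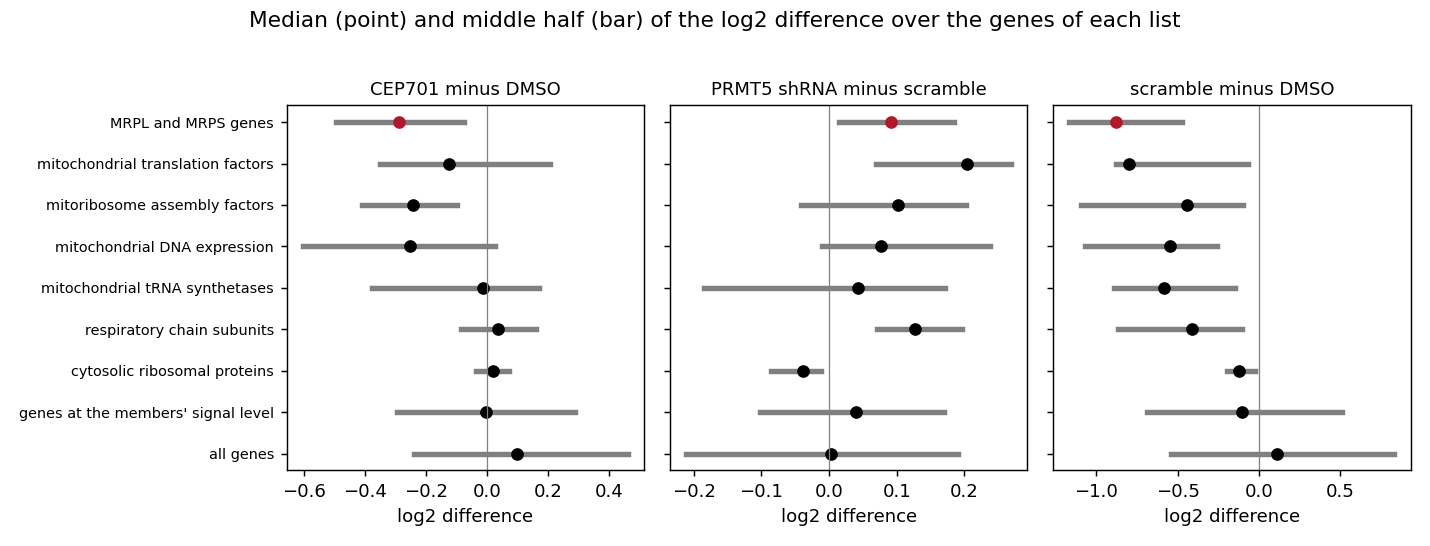
Median (point) and range between the quartiles (bar) of the log2 difference over the genes of each list in 3 comparisons; the horizontal scales differ between panels. The MRPL and MRPS genes (red) lie at -0.29, 0.09 and -0.88, cytosolic ribosomal proteins at 0.02, -0.04 and -0.12, and all genes at 0.10, 0.00 and 0.11.

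Several members share a promoter region with a neighbouring gene that runs the other way. Among the 67 members with a promoter window, 18 have a protein-coding gene in the opposite direction starting within 1000 bases (26.9%, against 10.3% of all windows). MRPL46 and MRPS11 form such a pair with each other. Of the 18 neighbours 17 were measured. With CEP701 their median log2 difference was -0.10, against -0.34 for the members beside them. By limma 0 of the 17 passed in either direction, where 2.04% of all genes were lower and 3.74% higher. At an unadjusted p under 0.05, 3 were lower and 4 higher, against 9.23% and 14.8% of all genes. In scramble against DMSO cells 5 of 17 neighbours were lower and 3 higher (median -0.20), against a median of -0.56 for the members. These counts are near the 20.3% and 25.5% of all genes called lower and higher, and 2 of the 5, MRPS11 and MRPL46, are themselves members. Of the pairs, picked as examples after their values were seen, MRPS12 and its neighbour SARS2, the mitochondrial seryl-tRNA synthetase, gave -1.74 and -0.99 in scramble against DMSO cells, while MRPL50 and its neighbour ZNF189 gave -0.64 and 0.65 with CEP701, neither of which passed (limma adjusted p = 0.0836 and 0.0563).

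More than 1 probe set was present for 37 members. In a few, probe sets of the same gene gave log2 differences past 0.5 in opposite directions: MRPL12, MRPL20 and MRPS12 with CEP701, MRPL41 with PRMT5 shRNA, and MRPL38, MRPL39, MRPL43 and MRPS31 between scramble and DMSO. In all but MRPL43 at least one of the opposed probe sets was dim. MRPL43 read 1195 and 1294 with scramble shRNA, against 1822 and 1880 with DMSO, by its brightest probe set (-0.57), and 1231 and 937 against 729 and 580 by another (0.71), so its direction depends on the probe set. The brightest probe set was kept for each gene in all counts above.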

How the data were processed

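Expression had been measured on 8 arrays from total RNA (200 ng) labelled with a 3′ IVT kit, per the labels' protocols. The authors deposited 1 linear signal intensity for each of 54675 probe sets, 62 of them controls. These the authors summarised with MAS5 in Affymetrix Expression Console, per the submitters' processing notes; no version is given. In the deposited values every array has a mean of about 500 with 2% left out at each end. Scaling of that kind can take out a shift shared by most genes, so a real shift of that kind may not show in these values. Median scaling and quantile normalization can do the same. Of the scalings tried, only that to the poly-A controls does not set the arrays to a common level of all genes.

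Probe sets were named from the platform annotation (41097 with 1 gene, 1801 with several, 11777 with none), and symbols were updated by Entrez ID to RefSeq. A further 4 probe sets that name a member together with another gene were not used. Tests used log2(signal + 10). A gene entered the fit, by its brightest probe set, if 2 or more arrays read above 60.0, which is the median signal. All 8 arrays were fitted with limma 3.58.1 (lmFit, then eBayes using a mean-variance trend) under R 4.3.3, as 1 mean per group (4 residual and 5.37 prior degrees of freedom), and p-values were adjusted by Benjamini-Hochberg over 14162 genes within each comparison. Log2 differences are of log2(signal + 10) and so understate the change of dim genes; SDs were taken on the unlogged signals.

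The shRNA arrays share a title suffix by replicate, and the deviations of such arrays from their group means correlated at r = 0.323; for the drug arrays, numbered 1 and 2 in each group, r was -0.0115. The block therefore refers to the shRNA pairs. Named members were those that passed (at most 12 per comparison by lowest p, and 5 where fewer than 5 passed), the brightest and dimmest 3, those with opposed probe sets, the MRPS18 paralogues and the member below the filter; a member named for another reason is said to be. In the other lists, examples were taken from the 4 genes of lowest p. The members, lists, motifs and tests were chosen with earlier results of these data known. The fit was tested on simulated data with known changes, and 21 alternatives were run. Promoter motifs were searched with Python 3.11.15.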

Additional observations from a re-analysis of the deposited data

How the results depend on the processing

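No result changed sign as a call under the 21 alternatives. With CEP701, 3 members were lower as reported; the count was 1 after quantile normalization or with the mean of a gene's probe sets, 0 with eBayes without a trend, 6 with median scaling, 10 with poly-A scaling, 31 with only the drug arrays, 31 with the replicate block of the shRNA pairs and 30 with a block in both arms, and 0 to 5 leaving out single arrays; 1 member was higher with only the drug arrays and with either block. The members' median was -0.79 with poly-A scaling. With PRMT5 shRNA, the block gave 1 member higher and 1 lower, and the block in both arms 1 lower; the median ran from -0.13 to 0.31 leaving out single arrays. For the difference of effects, 1 member was higher with the stricter filter or median scaling, 28 with the block and 24 with the block in both arms, with 2 lower under either block; leaving out single arrays gave 0 to 4 higher and 0 to 1 lower, and a median of 0.19 to 0.59. Its median was 0.58 with median scaling and 0.92 with poly-A scaling. Between scramble and DMSO the median was -1.23 with median scaling and -1.28 with poly-A scaling, and -0.97 to -0.68 leaving out single arrays; the block changed no call on the 12 members named there and gave 61 members lower, against 55. The causes were not tested, except that the fits without an array have fewer arrays. For several settings the share of all genes called higher or lower was not computed, so the member counts under them have no background. These settings are the mean of a gene's probe sets, eBayes without a trend, the stricter filter, the block in both arms and the fits without an array. Of 583 recomputed values of single named genes, 528 kept their side of the threshold, 21 lost it and 34 gained it. The 2 arrays a group limit every comparison. Comparisons between the arms are also limited because the labels do not settle whether both used the same cells.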

Other observations

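Regulators known for nuclear genes of mitochondria (12 measured) had a median log2 difference of 0.08 with CEP701 and 0.07 with PRMT5 shRNA, and 0 passed in either comparison by limma; at an unadjusted p under 0.05, 2 were higher and 1 lower with CEP701 and none differed with PRMT5 shRNA. In scramble against DMSO cells 4 of 12 were lower (33.3%) and 2 higher (16.7%), where 20.3% and 25.5% of all genes were. MYC, a transcription factor that drives ribosome production, read 5852 and 3099 with scramble shRNA, against 18495 and 21672 with DMSO (-2.23, limma adjusted p = 0.000884). GABPA, the ETS factor of many mitochondrial genes, read 1436 and 1245 against 2465 and 1996 (-0.73, adjusted p = 0.00802). YY1, named after its values were seen because its motif was searched, read 14121 and 11621 against 13502 and 11896, which overlapped (0.02, adjusted p = 0.937). CREB1 and GABPB2, the 2 that were higher, went the other way from MYC and GABPA. Their log2 differences were 0.74 and 1.41 (limma adjusted p = 0.0104 and 0.0112).

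The 18 measured mitochondrial tRNA synthetases and amidotransferase subunits, which charge the transfer RNAs that the mitochondrial ribosome uses, had medians of -0.01 with CEP701, 0.04 with PRMT5 shRNA and -0.58 between scramble and DMSO, where 8 were lower and 0 higher (11 and 1 at an unadjusted p under 0.05, where 23.5% and 29.3% of all genes were lower and higher). NARS2, which charges the transfer RNA for asparagine, read 864 and 592 with scramble shRNA, against 1592 and 1884 with DMSO (-1.26, limma adjusted p = 0.00179). Of 4 measured proteins of the mitochondrial ribosome that carry other names, DAP3 and PTCD3, both of the small subunit, were lower in scramble cells (-0.89 and -0.72, limma adjusted p = 0.00109 and 0.0207), while CHCHD1 and GADD45GIP1 did not pass (-0.14 and -0.55).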
